A study of Mus musculus with 6 samples.

Results

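A set of 10 long noncoding RNAs were examined in sorted mouse hematopoietic stem cells: Malat1 and Neat1, which are retained in the nucleus, and Gas5, Snhg1, Snhg3, Snhg5, Snhg6, Snhg8, Snhg12 and Epb41l4aos, whose genes hold small nucleolar RNAs (snoRNAs). They were chosen by name and not by a measured value, though with earlier results of these data known. Of the 10 members, 6 had a row among the 22969 genes of the count table: Malat1, Neat1, Snhg3, Snhg8, Snhg12 and Epb41l4aos. Gas5, Snhg1, Snhg5 and Snhg6 were not analysed here. All 6 with a row passed the filter on low counts.

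The cells came from bone marrow of adult C57BL/6 mice. They were sorted as negative for lineage markers, positive for Sca-1, c-Kit and CD150, and negative for CD48, with about 500 cells per library, and sequenced by Smart-seq2, which copies RNA from an oligo(dT) primer. Control mice were Rbfox2-fl/fl (3 libraries), and the Rbfox2-deleted mice were Vav1-cre; Rbfox2-fl/fl (3 libraries), so both groups carried the floxed allele and only the second carried Cre. Vav1-cre is active in blood cells generally and not only in stem cells, and Rbfox2 is an RNA-binding protein that regulates splicing. Libraries are called control 1 to 3 and deleted 1 to 3 after their labels. Controls 1 and 3 were nearly alike (chi-square per degree of freedom 3.44, against 156 for the next closest pair). They entered the main test as a single sample, so the comparison was 2 against 3. Only the alternatives with 6 separate libraries, with or without a replicate block, took them separately.

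Total counts ranged from 47895459 to 55151484 in the controls and from 23474895 to 35650284 in the libraries labelled Rbfox2-deleted. Deleted 1 had the lowest total and the fewest genes detected, 14154 against 15950 to 17087 elsewhere. Rbfox2, the targeted gene, had 238, 11 and 250 counts in controls 1 to 3 and 2, 87 and 10 in deleted 1 to 3. Control 2 and deleted 2 therefore went against their labels, and every direction below is between libraries as labelled. Whether the reads lie in the deleted exons was not tested. Xist, expressed from the inactive X of females, had 2821 counts in deleted 1 and 2467 in deleted 3 and at most 55 in any other library, so sex was not balanced between the groups. The 12 markers of the stem cell sort summed to 4975 to 5334 counts per 1000000 (CPM) in the controls and to 3382, 4325 and 4807 CPM in deleted 1 to 3, so the groups did not overlap. Among them Procr was at 158 to 237 CPM in every library. Ly6a, which encodes Sca-1, was at 632 to 815 CPM in the controls and 330 to 423 CPM in the others. Pdzk1ip1 was at 1157 to 1303 CPM and 494 to 597 CPM. The lack of overlap rests on Ly6a and Pdzk1ip1, since without them the sum of deleted 3 lies above every control. Neither of these passed edgeR's adjusted test (adjusted p = 0.387 for each). Cd48, which the sort excludes, was at 0 in all but deleted 3, where it was at 0.0900 CPM.

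Marker lists of other blood cells also differed between libraries, and their part in the results below was not tested. Of 8 erythroid markers 7 had a row, with a summed level of 120 to 169 CPM in the controls and of 484, 129 and 224 CPM in deleted 1 to 3. The high sum of deleted 1 came from the globins, such as Hba-a1 at 152 CPM against 14.1 to 19.5 CPM elsewhere, and from Alas2, whereas Epor was at 0.128 CPM there against 18.1 to 61.4 CPM elsewhere and Klf1 was at 0. The 6 megakaryocyte markers summed to 277 to 285 CPM in the controls and to 44.0, 145 and 256 CPM in deleted 1 to 3, and Pf4, Ppbp and Gp1bb were at 0 in deleted 1. The 9 myeloid markers summed to 1961 to 2914 CPM in the controls and 1694 to 1929 CPM in the others, and the 7 B cell markers to 214 to 331 CPM and 140 to 195 CPM, nearly all of it Cd79b. The 7 markers of T and natural killer cells with a row summed to 4.41 to 13.6 CPM in the controls and to 100.4, 13.2 and 31.6 CPM in deleted 1 to 3, mostly Klrb1c, with Cd3e at or below 0.0600 CPM and Ncr1 at 0. The 7 endothelial and stromal markers summed to 56.8 to 119 CPM in the controls and to 183, 98.1 and 172 CPM in deleted 1 to 3, nearly all of it Emcn, with Cdh5 at or below 0.0561 CPM. In these bulk libraries, fewer cells of a type and less RNA per cell cannot be told apart.

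Malat1 is an abundant unspliced RNA of nuclear speckles, the bodies that store splicing factors, and Neat1 is the scaffold of paraspeckles, bodies that hold RNA-binding proteins. Both genes lie beside each other on chromosome 19, and both make RNAs whose mature 3′ end can be a triple helix in place of a poly(A) tail. snoRNAs guide the modification of ribosomal RNA. They are cut from the introns of host genes, and the spliced noncoding hosts are exported and many are degraded when translated, by nonsense-mediated decay.

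Sequences of Malat1 are shown first because it carries most of the members' counts and because the protein deleted in this study binds the hexamer TGCATG. The transcript of 6983 bases holds that hexamer 3 times on its own strand, and 30.4% of 1417 tested genes with a longest transcript of similar length hold it at least as often. Neat1, over 20771 bases, holds it 9 times, and 15.8% of 19 genes of similar length hold at least as many. Each such set of genes includes the member itself. The longest annotated transcripts of Snhg3, Snhg8, Snhg12 and Epb41l4aos hold none. Their other transcripts and introns were not searched. The sequence of Snora44, printed below, holds the hexamer and lies within annotated exon of Snhg12. The fourth window shows the longest run of A in Malat1, 12 bases, because library synthesis starts from oligo(dT), and 23.9% of the genes of similar length hold a run at least as long. Each window is read from GENCODE vM21 transcripts (build mm10), with the hexamer or the A run in capitals and 17 bases on each side. A match is a description of the letters and shows no binding or priming there.
Malat1 first match (chr19:5801241-5801280, minus strand): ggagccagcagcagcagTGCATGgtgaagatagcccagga
Malat1 second match (chr19:5798777-5798816, minus strand): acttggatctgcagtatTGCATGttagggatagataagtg
Malat1 last match (chr19:5797982-5798021, minus strand): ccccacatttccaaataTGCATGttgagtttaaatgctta
Malat1 A run (chr19:5795971-5796016, minus strand): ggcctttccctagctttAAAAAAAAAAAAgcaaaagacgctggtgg

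The start regions of 4 members are shown because host genes of snoRNAs, like ribosomal protein genes, are known for a run of C and T at their start. RefSeq (GRCm38.p6) gave promoters for Malat1, Snhg3, Snhg8 and Snhg12 among the measured members. Windows run from 80 bases before to 50 bases after the start. Capitals mark TATAA on the transcribed strand. They also mark a run, a C followed by 5 or more C or T, whose first 6 bases lie within 10 of the start. Such a run was in Snhg8 and Snhg12, in 15.1% of 32851 promoters of all genes and in 44.3% of 70 ribosomal protein promoters. Of 4 definitions of the run tried on these sequences, Snhg12 met all, Snhg8 met that one alone, and Malat1 and Snhg3 met none. The other definitions were 7 bases within 20 (18.7% of promoters), 8 within 20 (12.6%), and 8 from 10 before to 20 after the start (8.68%). TATAA, which 8.36% of promoters hold in the same window, began 30 bases before the start of both Snhg8 and Snhg12. In Snhg3 it began at base 23 after the start. GENCODE vM21, used here for gene spans and lengths, starts Snhg8 and Snhg12 upstream of that TATAA, which lies within their annotated span.
Malat1 (chr19:5802623-5802752, minus strand): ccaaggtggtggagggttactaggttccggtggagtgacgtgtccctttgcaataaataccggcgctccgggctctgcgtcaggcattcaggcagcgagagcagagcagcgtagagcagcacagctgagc
Snhg3 (chr4:132353637-132353766, minus strand): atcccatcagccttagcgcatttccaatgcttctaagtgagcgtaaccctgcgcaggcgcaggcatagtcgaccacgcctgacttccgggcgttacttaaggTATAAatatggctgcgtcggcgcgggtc
Snhg8 (chr3:123508287-123508416, minus strand): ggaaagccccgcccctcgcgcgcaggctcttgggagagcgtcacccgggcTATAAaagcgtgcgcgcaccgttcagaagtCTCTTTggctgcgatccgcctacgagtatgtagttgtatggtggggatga
Snhg12 (chr4:132308598-132308727, plus strand): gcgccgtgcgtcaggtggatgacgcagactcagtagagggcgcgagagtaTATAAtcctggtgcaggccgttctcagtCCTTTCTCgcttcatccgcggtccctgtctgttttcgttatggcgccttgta

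Per kilobase of merged exon, which allows for gene length alone, Malat1 had the highest level of the 6 in both groups and Neat1 the lowest. Capture by oligo(dT) was not corrected for. It can differ for Malat1 and Neat1, whose mature 3′ end can lack a poly(A) tail. In the controls the order in CPM per kilobase was Malat1 at 286 ± 28.4 (SD, n = 2), Snhg8 at 115 ± 19.8, Epb41l4aos at 91.0 ± 16.4, Snhg12 at 14.1 ± 8.85, Snhg3 at 4.96 ± 1.38 and Neat1 at 0.607 ± 0.0627. The ranges of Snhg8 and Epb41l4aos overlapped, and those of the other neighbours in the order did not. In the libraries labelled Rbfox2-deleted, Epb41l4aos at 66.6 ± 42.7 (SD, n = 3) and Snhg8 at 64.8 ± 6.70 overlapped and changed places, and the rest of the order was the same. The Neat1 level is spread over its longest form, of 20771 bases, and is a lower estimate for a shorter form. The merged exons of Snhg8 (853 bases) and Snhg12 (2402 bases) cover the whole gene in 1 block. Their longest single transcripts have 776 and 1538 bases. That of Snhg3 has 581 bases against 986 of merged exon. The levels of Snhg8, Snhg12 and Snhg3 are thus also lower estimates for such forms.

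In edgeR's quasi-likelihood test, 0 of the 6 members differed between groups after Benjamini-Hochberg adjustment over all 12350 genes tested, where 0 genes were called (0%). At an unadjusted p under 0.05 no member was lower (563 genes, 4.56% of all) and no member was higher (658 genes, 5.33%). DESeq2 called 0 of the 6, beside 181 of 11471 genes with an adjusted p (1.58%). On CPM scaled by the trimmed mean of M-values (TMM), every library labelled Rbfox2-deleted was below both control samples for 2 of the 6, Snhg8 and Neat1, against 17.2% of all genes, and above both for none, against 14.9% of all genes. With so few members, 2 of 6 is a description and is not set apart from that share. The common biological coefficient of variation was 104%, which limits what 2 samples against 3 can show.

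**Figure D1:**
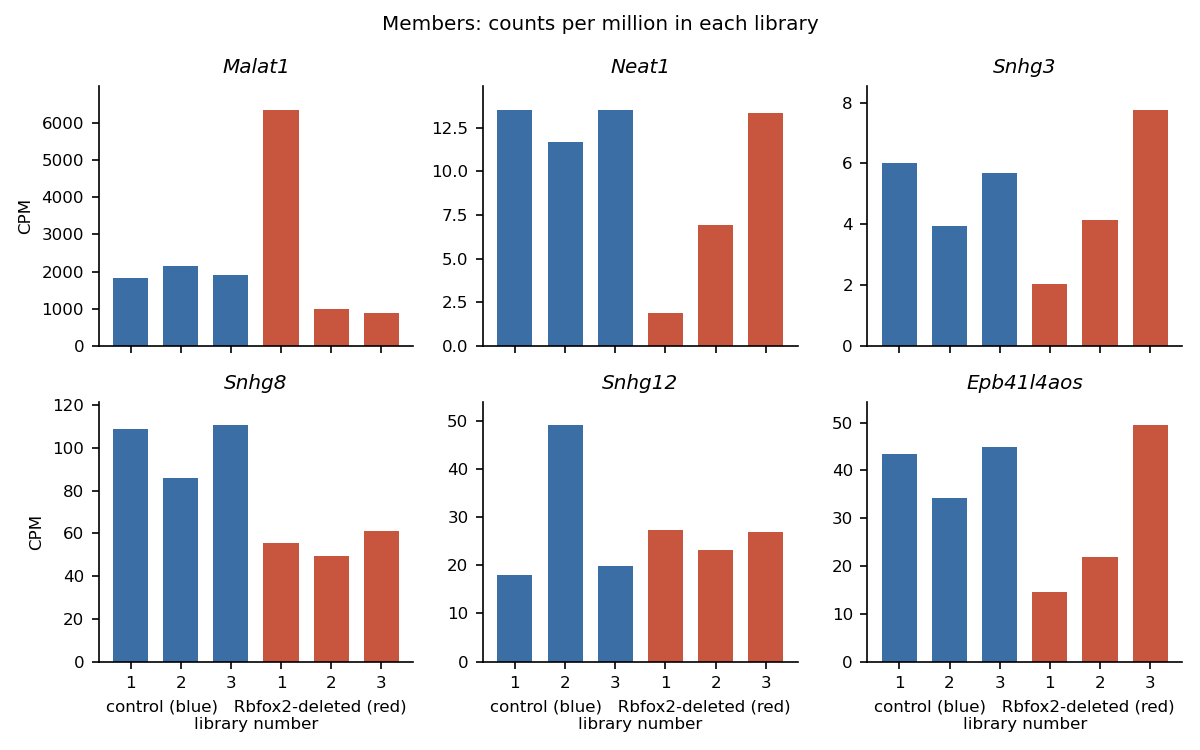
CPM (vertical axis, linear, a scale for each gene) in each of the 6 libraries, controls in blue and libraries labelled Rbfox2-deleted in red, 1 bar per library. Snhg8 has its 3 red bars, 49.4 to 60.9 CPM, below its 3 blue bars, 85.8 to 110 CPM, while Malat1 has 1 red bar at 6357 CPM and the others at 997 and 879.

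Malat1 (chr19:5795690-5802672, minus strand, mm10) was at 1814, 2137 and 1899 CPM in controls 1 to 3 and at 6357, 997 and 879 CPM in deleted 1 to 3. The controls lay close together, deleted 1 stood 3.18-fold above their mean and the other libraries labelled Rbfox2-deleted stood at 0.499-fold and 0.440-fold of it, so the group straddled the controls. The log2 fold change was 0.57 with a standard error of 1.01 (edgeR adjusted p = 0.951). Deleted 1 decided the direction. Without it the log2 fold change was -1.32 with a standard error of 0.228 (edgeR adjusted p = 0.0638), and Malat1 was lower in both remaining libraries. Deleted 1 was also the library with the lowest depth, the most Hba-a1 and no Pf4. Malat1 held 0.181% to 0.214% of all counts in the controls, 0.636% in deleted 1, and 0.0997% and 0.0879% in deleted 2 and 3.

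Neat1 (chr19:5824708-5845478, minus strand) was at 13.5, 11.7 and 13.5 CPM in controls 1 to 3 and at 1.87, 6.90 and 13.3 CPM in deleted 1 to 3. Deleted 1 was the lowest of all 6, the opposite of its place for Malat1, and deleted 3 lay within the controls on plain CPM. After TMM scaling deleted 3 was at 11.4, just under the 12.5 of control 2. The log2 fold change was -0.96 with a standard error of 1.12 (edgeR adjusted p = 0.904). Neat1 was thus covered by 44 counts in deleted 1 and by 246 to 746 in the others.

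Snhg8 (chr3:123507552-123508404, minus strand), the host of Snora24, was at 109, 85.8 and 110 CPM in controls 1 to 3 and at 55.6, 49.4 and 60.9 CPM in deleted 1 to 3. It had the narrowest spread of the members relative to its difference, and the groups did not overlap with or without TMM scaling. The mean was 97.8 ± 16.9 CPM (SD, n = 2) in the controls and 55.3 ± 5.72 (SD, n = 3) in the libraries labelled Rbfox2-deleted, 56.5% of the control mean. The log2 fold change was -0.88 with a standard error of 0.406, with an unadjusted p of 0.0707 and an adjusted p of 0.562 in edgeR, so the difference did not pass the test. It was below 0 in each of 16 alternative fits, from -1.24 to -0.31, and the lowest adjusted p among them was 0.0860, without deleted 1. Both libraries that go against their labels on Rbfox2 counts stood low in their group, control 2 with the lowest control value and deleted 2 with the lowest value of all.

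Snhg12 (chr4:132308623-132311024, plus strand), the host of Snora16a, Snora44, Snora61 and Snord99, was at 18.0, 49.0 and 19.9 CPM in controls 1 to 3 and at 27.3, 23.2 and 26.8 CPM in deleted 1 to 3. Control 2 alone was high, and the 3 libraries labelled Rbfox2-deleted lay between it and the other controls. The log2 fold change was -0.48 with a standard error of 0.734 (edgeR adjusted p = 0.939), and without control 2 it was 0.45.

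Snhg3 (chr4:132348014-132353686, minus strand), the host of Snora73a and Snora73b, was at 6.01, 3.93 and 5.69 CPM in controls 1 to 3 and at 2.04, 4.15 and 7.77 CPM in deleted 1 to 3. Deleted 1 was the lowest and deleted 3 the highest of the 6, so the groups overlapped throughout. The log2 fold change was -0.22 with a standard error of 1.25 (edgeR adjusted p = 0.986), and it was 0.0073 without controls 1 and 3 and 0.052 without deleted 1. Snhg3 overlaps Rcc1 on the same strand, and 135 of its 986 exonic bases (13.7%) are also exon of Rcc1, so reads from them cannot be told apart.

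Epb41l4aos (chr18:33794892-33795986, plus strand), a spliced transcript beside the gene Epb41l4a, was at 43.4, 34.2 and 44.9 CPM in controls 1 to 3 and at 14.6, 22.0 and 49.4 CPM in deleted 1 to 3. Deleted 3 was above every control while the other 2 were below every control. The log2 fold change was -0.59 with a standard error of 0.690 (edgeR adjusted p = 0.904). A correction for transcript length turned it to 0.32, and Epb41l4aos has the shortest merged exons of the 6, 430 bases.

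The annotation places 9 snoRNA genes within the measured hosts, and 5 of them had a row of their own. Snora16a is entered more than once among the 9, with overlapping spans, and only the entry at chr4:132309465-132309600 had a row. Snora73a, the snoRNA U17 that acts in cleavage of ribosomal RNA precursors, had 21, 41 and 50 counts in controls 1 to 3 and 0, 167 and 206 in deleted 1 to 3. In CPM these were 0.439, 0.794 and 0.907 against 0, 4.68 and 6.18, where a count of 0 in deleted 1 allows up to 0.128 CPM (3 counts). Deleted 2 and 3 were thus above every control and deleted 1 below. Snhg3 itself was likewise lowest in deleted 1 and highest in deleted 3, but its deleted 2, at 4.15 CPM, lay within the controls. Snora44 had 29, 0 and 39 counts in the controls and 0, 0 and 22 in deleted 1 to 3. Snora73b, Snora24 and Snora16a had 0 counts in all 6 libraries, and a count of 0 allows at most 0.0544 to 0.128 CPM in a library. Library synthesis from oligo(dT) is not made for mature snoRNAs, which have no poly(A) tail, and a read here can also come from the host's precursor. Exons of an annotated Snhg3, Snhg8 or Snhg12 transcript cover part or all of Snora73a, Snora24, Snora16a and Snora44, and the rule for a read over both genes is not stated in the labels.

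The snoRNA sequences below are shown because the counts above turn on telling them apart. Snora73a and Snora73b have 205 bases each and differ at 7 of them (96.6% identity), marked by capitals in both, and reads from identical stretches can be given to either. For Snora24 and Snora16a the capitals mark ACA at 3 bases from the 3′ end, a known feature of their class, which 18.3% of 1507 annotated snoRNAs of all classes have, and Snora44 does not have it in its annotated span. All are from GENCODE vM21 transcripts, build mm10.
Snora73a (chr4:132352775-132352979, minus strand): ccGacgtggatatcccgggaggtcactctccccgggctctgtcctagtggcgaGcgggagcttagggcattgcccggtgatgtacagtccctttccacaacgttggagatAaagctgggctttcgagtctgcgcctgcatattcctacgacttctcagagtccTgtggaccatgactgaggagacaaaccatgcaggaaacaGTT
Snora73b (chr4:132352322-132352526, minus strand): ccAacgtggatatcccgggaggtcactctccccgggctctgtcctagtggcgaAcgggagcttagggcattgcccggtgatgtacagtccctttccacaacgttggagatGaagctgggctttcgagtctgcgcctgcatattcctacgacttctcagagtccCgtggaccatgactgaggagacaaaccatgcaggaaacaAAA
Snora24 (chr3:123507937-123508066, minus strand): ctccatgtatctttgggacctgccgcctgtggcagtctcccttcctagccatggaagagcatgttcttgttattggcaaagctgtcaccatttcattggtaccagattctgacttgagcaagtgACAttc
Snora16a (chr4:132309465-132309600, plus strand): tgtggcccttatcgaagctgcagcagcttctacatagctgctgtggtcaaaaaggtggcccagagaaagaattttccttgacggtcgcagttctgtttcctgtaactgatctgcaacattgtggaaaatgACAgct
Snora44 (chr4:132309941-132310069, plus strand): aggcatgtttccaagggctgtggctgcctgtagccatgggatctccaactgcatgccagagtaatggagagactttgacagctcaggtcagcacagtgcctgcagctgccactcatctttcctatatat

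**Figure D2:**
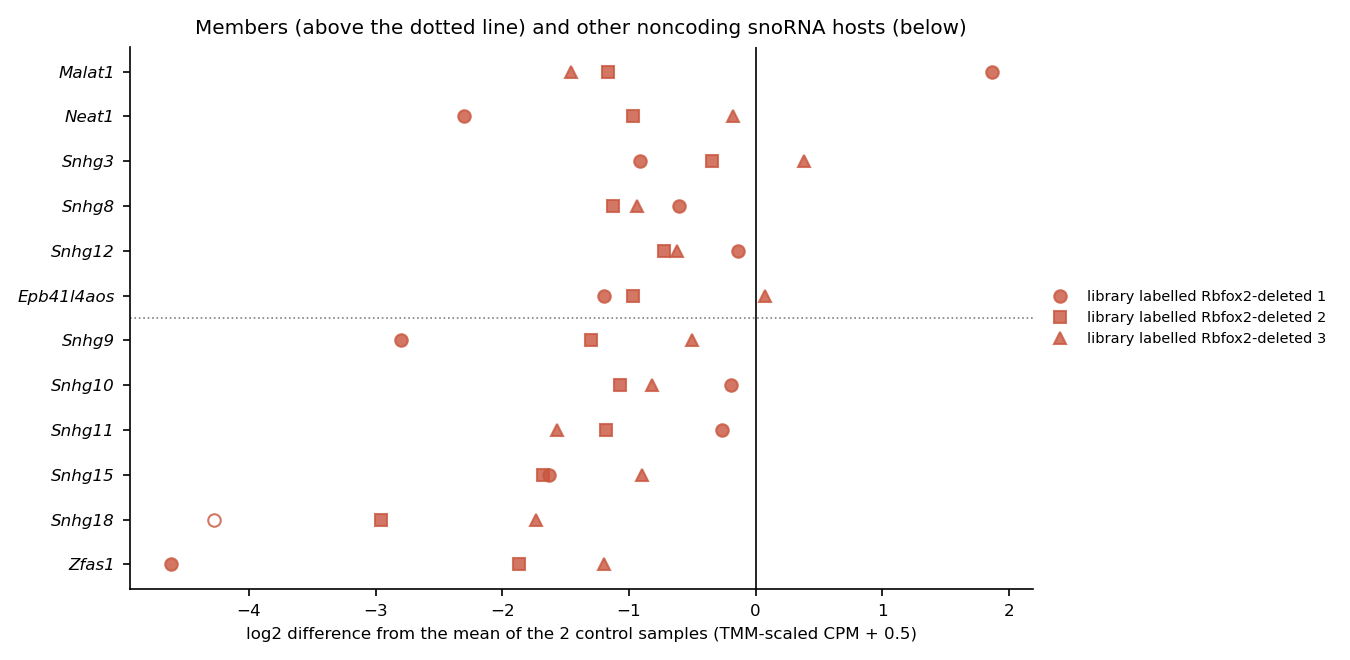
Log2 difference of each library labelled Rbfox2-deleted from the mean of the 2 control samples, on TMM-scaled CPM plus 0.5, for the 6 members and 6 other noncoding snoRNA hosts. Each symbol is 1 library, the open symbol stands for a count of 0, and the vertical line marks no difference. Malat1 in deleted 1 lies at 1.87 and is the point farthest to the right, while all 18 points of the other hosts lie left of 0.

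On the scale of TMM-scaled CPM plus 0.5, the median of the 6 members against the control mean was -0.76 in deleted 1, -0.97 in deleted 2 and -0.40 in deleted 3. The median over all 12350 genes tested was -0.50, -0.09 and -0.02 in the same libraries, so deleted 1 was low in general on this scale. In the edgeR fit 5 of the 6 members had a log2 fold change below 0, with a median of -0.54, beside 46.5% of all genes below 0 with a median of 0.11. Under a correction for transcript length 3 of the 6 were below 0, with a median of 0.00.

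Other noncoding snoRNA hosts were taken from a list of 12, of which 7 had a row and 6 passed the filter. The annotation used calls 1 of these 6, Snhg11, protein coding, and types the small RNA within Snhg10, Scarna13, as a Cajal body RNA and not as a snoRNA. All 6 had a log2 fold change below 0, with a median of -1.35, and 5 of them lay below the controls without overlap, beside 17.2% of all genes, although none passed the adjusted test. Snhg15 was at 166, 218 and 169 CPM in controls 1 to 3 and at 54.2, 67.3 and 125 CPM in deleted 1 to 3 (log2 fold change -1.36, standard error 0.392, unadjusted p = 0.0122, edgeR adjusted p = 0.387). Zfas1, the host of Snord12-family snoRNAs, was at 142, 117 and 148 CPM against 4.22, 39.4 and 68.3 (log2 fold change -2.01, edgeR adjusted p = 0.548). Snhg18 was at 8.50, 8.77 and 9.61 CPM against 0, 0.814 and 2.82. For all 3 every library labelled Rbfox2-deleted was below every control, and deleted 1 had the lowest CPM. Without deleted 1 all 6 hosts stayed below 0, with a median of -1.39, and under the length correction 5 of 6 did, with a median of -1.05.

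Across every gene annotated as a long noncoding RNA, 213 of 345 tested had a log2 fold change below 0, with a median of -0.48. Of these 345, 85 lay below the controls without overlap, beside 17.2% of all genes. Above the controls without overlap lay 15, beside 14.9% of all genes. Among the 345, the 20 that hold a snoRNA had a median of -0.75, and the 16 of them that are not members -0.83. The 325 that hold none had a median of -0.44. By direction the 16 were little apart from the 325, with 10 below 0 (62.5%) beside 199 (61.2%). Below the controls without overlap lay 8 of the 16, beside 76 of the 325, and above the controls 2 and 13. Whether these shares differ was not tested. The 16 include Cct6a, a chaperonin gene that this annotation gives the type processed transcript. The median over 11841 protein coding genes was 0.12. Under the length correction the medians were -0.29 for those with a snoRNA and -0.28 for those without, so the gap between them depended on that choice. The median of all annotated long noncoding RNAs was -0.12 over 344 genes without controls 1 and 3, -1.20 over 323 with a replicate block, and -0.01 over the 122 with at least 10 counts in every sample, of which 61 were below 0.

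Among other long noncoding RNAs, a list of 22 of which 10 had a row and 8 passed the filter, 2 were above 0 and 6 below. Dancr, also the host of Snora26, was at 42.7, 32.6 and 43.2 CPM in controls 1 to 3 and at 7.50, 15.4 and 25.5 CPM in deleted 1 to 3, without overlap (log2 fold change -1.37, edgeR adjusted p = 0.660). Ftx, from the X-inactivation centre, was at 4.14 to 11.0 CPM in the controls and 0.0426 to 3.00 CPM in the libraries labelled Rbfox2-deleted. Firre, a nuclear RNA from the X chromosome, was at 72.7 CPM in deleted 1 and 8.77 to 16.1 CPM elsewhere, the same library that was high for Malat1. Oip5os1 was at 53.8 to 61.0 CPM in the controls and at 34.9 to 72.6 CPM in the others, with overlap. Xist was called by DESeq2 (adjusted p = 0.0062) and not by edgeR (adjusted p = 0.454), and it divides the libraries as given above.

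**Figure D3:**
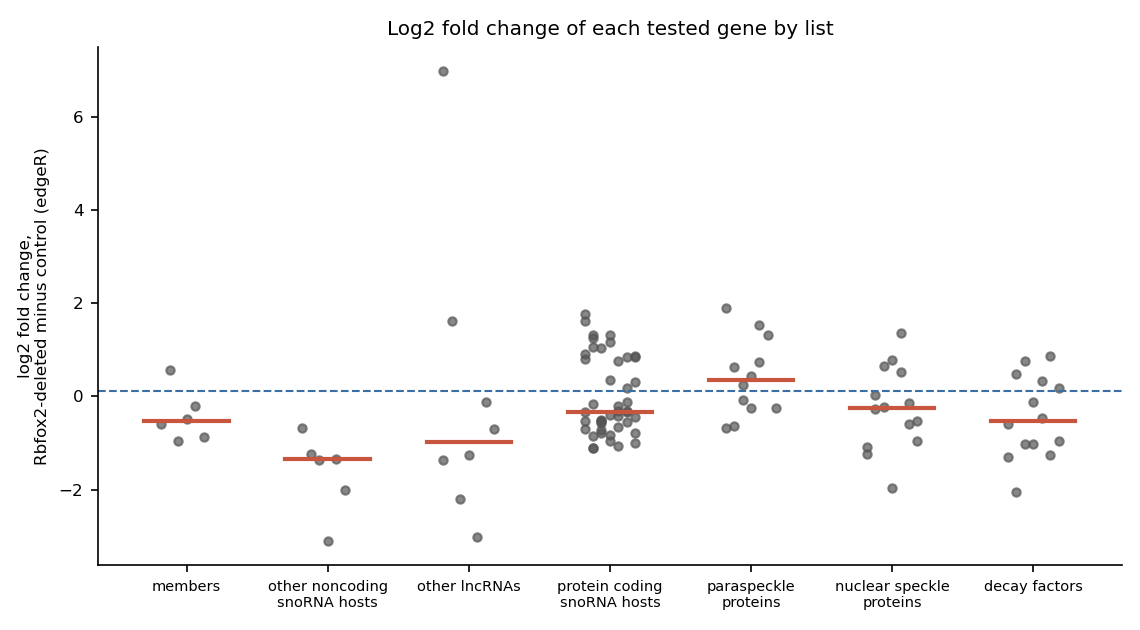
Log2 fold change in edgeR (vertical axis) of each tested gene in 7 lists, 1 grey point per gene; the red bar is the list's median and the dashed line is the median of all genes tested, 0.11. The members' median is -0.54 and that of the other noncoding snoRNA hosts -1.35, and the single point near 7 is Xist.

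Genes that encode proteins also host snoRNAs, and 45 of 45 listed were tested, among them Cct6a, counted above under its annotated type. Of these 17 were above 0 and 28 below, with a median of -0.33, and over all 197 protein coding genes that hold an annotated snoRNA the median was 0.12. The list joins ribosomal protein genes with others, and its members did not move in 1 direction. Hspa8, a chaperone whose introns hold snoRNAs, was at 457, 387 and 455 CPM in controls 1 to 3 and at 935, 1706 and 1524 CPM in deleted 1 to 3, and DESeq2 called it higher (adjusted p = 0.0192) while edgeR did not (adjusted p = 0.387). Cnbp was at 959 to 1227 CPM against 2717 to 2987, and the chaperonin subunit Cct6a at 38.4 to 54.1 CPM against 130 to 203, neither passing either test. The ribosomal protein genes Rpl37 and Rps20 were lower without overlap, Rpl37 at 1236 to 1403 CPM against 536 to 715 and Rps20 at 903 to 1078 CPM against 443 to 529, also without passing a test. These genes have processed copies, so their counts are uncertain.

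Proteins of the nuclear bodies that hold Malat1 and Neat1 were examined from lists of names. Of 12 paraspeckle proteins 7 were above 0 and 5 below (median 0.34), and Hnrnpk, Nono and Cpsf6 were higher without overlap and did not pass the adjusted test. Nono, a core paraspeckle protein, was at 32.9 to 47.8 CPM in the controls and 83.1 to 116 CPM in the libraries labelled Rbfox2-deleted (log2 fold change 1.31, edgeR adjusted p = 0.454). Hnrnpk was at 57.3 to 72.4 CPM against 80.2 to 287, and Cpsf6 at 12.1 to 16.6 CPM against 31.2 to 86.3.

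Of 14 nuclear speckle proteins 5 were above 0 and 9 below (median -0.25). Pnn, a speckle protein that joins exon junction complexes, was at 337, 227 and 343 CPM in controls 1 to 3 and at 51.9, 73.4 and 110 CPM in deleted 1 to 3, and DESeq2 called it lower (adjusted p = 0.0127) while edgeR did not (adjusted p = 0.387). Srrm2, a scaffold of speckles, was at 1044 to 1117 CPM against 439 to 514, and Acin1 at 120 to 128 CPM against 41.0 to 82.0. Rnps1, at 112 to 140 CPM against 296 to 362, Ddx39b, at 198 to 242 CPM against 325 to 381, and Srsf3, at 94.4 to 105 CPM against 140 to 214, were higher, so the list held genes on both sides.

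Of 14 factors of nonsense-mediated decay and the exon junction complex 5 were above 0 and 9 below (median -0.54), and none passed an adjusted test. Magoh, a core subunit of the exon junction complex, was at 224 to 260 CPM in the controls and 103 to 139 CPM in the others (log2 fold change -1.02, edgeR adjusted p = 0.387). Its partner Rbm8a was at 301 to 328 CPM against 50.3 to 269, and Upf3b, which links that complex to decay, at 92.7 to 116 CPM against 36.2 to 71.4. Eif4a3, at 138 to 174 CPM against 204 to 248, and the Upf3b paralog Upf3a, at 21.0 to 53.7 CPM against 55.4 to 91.5, were higher without overlap.

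**Figure D4:**
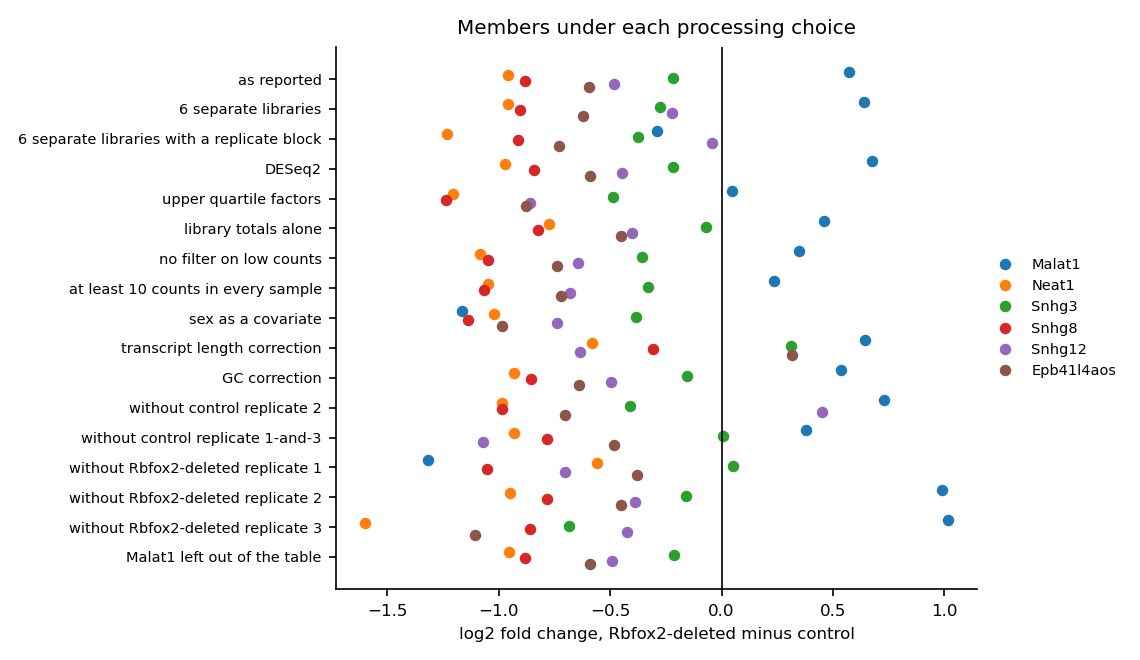
Log2 fold change of each member (horizontal axis, 1 colour per gene) under the reported fit and 16 alternatives, 15 for Malat1 (vertical axis). Snhg8 and Neat1 lie left of 0 in every row, while Malat1 moves from 0.57 to -1.32 when deleted 1 is left out.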

How the data were processed

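RNA from sorted hematopoietic stem cells of 3 control and 3 Rbfox2-deleted mice was measured. The values are counts of reads per Ensembl gene, deposited by the authors without normalization. Per the submitters' processing notes, Trimmomatic 0.39, featureCounts, DESeq2 1.36.0 and the build mm10 were used. Not given in the sources used here were the aligner, annotation and strand setting, and PCR copies could not be removed, so floors of 3 counts cover counting error only. Rows sharing an identifier (60 identifiers, 0.449% of counts) were summed; none was a member. Controls 1 and 3 were summed to 1 sample, except in the alternatives with 6 separate libraries. The p-values of the main test measure only the spread between these 5 samples.

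The main test was edgeR 4.0.16 (quasi-likelihood, TMM, filterByExpr with a minimum count of 10, two-sided, Benjamini-Hochberg over all genes, threshold 0.05) in R 4.3.3. DESeq2 1.42.0, other scalings, filters and covariates, and leaving out samples were alternatives. CPM used library totals. Groups were called apart on TMM-scaled CPM. Members, lists and windows were chosen with earlier results of these data known. Other genes were named by rule: Rbfox2, Xist, up to 3 per direction and list with the smallest edgeR p and no overlap, and listed noncoding genes with a mean above 20 CPM; marker genes were named after their values were seen. A gene that the rule names is not reported here. Oip5os1 was matched through its older RefSeq symbol. Replicate numbers did not pair the samples.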

Additional observations from a re-analysis of the deposited data

How the results depend on the processing

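Snhg8 and Neat1 kept a negative log2 fold change in all 16 alternatives, and no alternative brought a member past an adjusted p of 0.05. Malat1 turned to -0.29 with the replicate block, -1.17 with sex as a covariate and -1.32 without deleted 1. By Xist counts, deleted 2 was the only library labelled Rbfox2-deleted on the side of the controls. The group term of the sex fit therefore compared deleted 2 alone with the controls, and deleted 2 goes against its label on Rbfox2 counts. Snhg3 turned to 0.31 and Epb41l4aos to 0.32 with the length correction, Snhg3 also to 0.0073 without controls 1 and 3 and to 0.052 without deleted 1, and Snhg12 to 0.45 without control 2. The causes were not tested. Leaving out 1 sample at a time gave -1.32 to 1.02 for Malat1, -1.60 to -0.56 for Neat1, -0.68 to 0.052 for Snhg3, -1.05 to -0.78 for Snhg8, -1.07 to 0.45 for Snhg12, -1.11 to -0.38 for Epb41l4aos, and -1.86 to -1.30 for the median of the other noncoding snoRNA hosts, of which 5 to 6 were below 0. All genes called numbered 0 in edgeR under each alternative and 181 in DESeq2. Genes with an unadjusted p under 0.05 numbered 1221 as reported, 2145 with 6 separate libraries, 371 with sex as a covariate, 465 without control 2, 559 without controls 1 and 3 and 2924 without deleted 1. Upper quartile scaling moved the median of all genes from 0.11 to -0.20 and the split of those genes from 658 higher and 563 lower to 339 and 1087; Malat1 was then at 0.05 and Snhg8 at -1.24. Same-numbered control and deleted libraries had correlations of -0.046, 0.002 and 0.070, none over 0.1, and the fit with the replicate block called 0 genes. Depth limits Neat1, Snhg3 and the snoRNAs most. Malat1 left out of the table, and the lists under every fit, were added after seeing the data.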
